A study of Solanum lycopersicum with 12 samples.

Results

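Tomato sections whose lateral root primordium had reached the epidermis (stage 5) were compared with sections whose primordium was crossing the endodermis (stage 3). These 2 groups hold 2 libraries each, so 4 of the 12 libraries of the series carry the comparison. The libraries were assigned by the stage in the submitters' labels. The seedlings of all groups were cultivar M82 carrying the reporter DR5::VENUSx3-NLS, in which an auxin-responsive promoter drives a nuclear fluorescent protein, and they grew on agar plates without a treatment. The fluorescence served to stage each primordium before a piece of the primary root around it was cut out and frozen. At stage 5 the primordium had not yet emerged. The other groups are stage 4, with the primordium midway through the cortex, the earlier stages 1 and 2, and a control section of the differentiation zone with no lateral root. The age of the seedlings and the number of plants per library are not given in the sources used here.

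As background, a lateral root starts in cells of the pericycle, deep inside the parent root, and must pass the endodermis, the cortex and the epidermis on its way out. Cells in front of the primordium lose volume or separate, while the primordium enlarges and acquires its own tissue layers and meristem. Auxin drives the divisions and also acts on the overlying cells. A section therefore holds both the primordium and the older tissue around it. In such bulk samples a lower level can come from fewer cells of a type or from less RNA per cell, and these cannot be told apart. The locus tags of the table are paired with no gene name in the files or the reference table used here. Genes are therefore given by tag, and neither gene functions nor cell type markers were examined.

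The stage 3 libraries held 4834266 and 5218141 counts, and the stage 5 libraries 4032897 and 1948150. The second stage 5 library was the shallowest of the series. In it, the detection floor of 3 counts was equal to 1.6 CPM, the count scaled to the normalised library total, against 0.561 to 0.79 in the other libraries of the comparison. Across the 14093 genes with a mean of at least 20 counts in the 4 libraries, the stage 5 duplicates had a median absolute log2 difference of 0.401, and the stage 3 duplicates one of 0.215. A difference of more than 2-fold between duplicates was found for 14% of these genes at stage 5 and 3.14% at stage 3. The Spearman correlation over all tested genes was 0.971 between the stage 3 duplicates and 0.929 between the stage 5 duplicates. Between stage 3 and stage 5 libraries it lay lower, from 0.871 to 0.904.

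Between stage 3 and stage 5, 3119 of 18357 tested genes changed, which is 17% of the genes tested (edgeR's quasi-likelihood test, Benjamini-Hochberg adjusted p-value under 0.05). Of these, 1281 rose (6.98% of the genes tested) and 1838 fell (10%). The called falls were also larger in the median. The median called rise was 2.04-fold and the median called fall 2.71-fold, with genes at the detection floor in 1 stage entered at their lower bound. A change of more than 2-fold was fitted for 671 of the genes that rose (52.4%) and 1491 of those that fell (81.1%). A change of more than 4-fold was fitted for 187 and 489 genes. With the floor genes at their bound, these counts were 671 and 1474 above 2-fold, and 186 and 414 above 4-fold. Over all tested genes the median log2 change was −0.01, and the scaling of the libraries tends to hold it near no change.

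The number of called genes depended on single libraries. It was 981 without stage 5 replicate 1, 1400 without stage 3 replicate 1 and 500 without stage 3 replicate 2, with 39.9%, 28.8% and 16.6% of the calls higher, against 41.1% in the full fit. Without the shallow stage 5 replicate 2 it was 2769, of which 2073 were among the 3119. A fit of only the 4 libraries compared called 1973 genes, 784 higher and 1189 lower, and 1847 of these were among the 3119. In each of these fits the genes shared with the 3119 had the same direction. The fits reuse the same libraries and only genes called in both are counted, so the equal direction is no separate evidence.

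**Figure D1:**
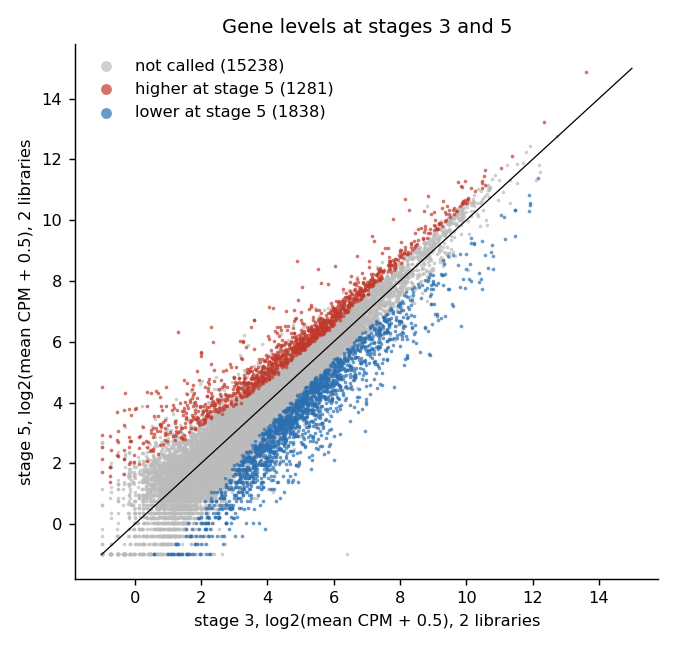
Mean level of each tested gene at stage 3 (horizontal axis) and stage 5 (vertical axis), each as log2(mean CPM + 0.5) over 2 libraries, with the 1281 genes that rose in red, the 1838 that fell in blue and the others in grey. The line marks equal levels; the blue genes lie farther from it than the red ones, with a median fall of 2.71-fold against a median rise of 2.04-fold.

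For comparison with the test, the libraries of both stages did not overlap for 59.3% of all tested genes, with stage 5 higher for 28% and lower for 31.4%. With 2 libraries a stage, non-overlap is frequent even without a change, so this share is not a share of changed genes. Among the called genes the libraries did not overlap for 1280 of the 1281 that rose and for all 1838 that fell. The change was seen in each pairing of libraries. The median log2 difference of the genes that rose lay between 0.92 and 1.13 over the 4 pairings of a stage 5 with a stage 3 library. For the genes that fell it lay between −1.62 and −1.28, and for all tested genes between −0.06 and −0.01. The called genes were chosen by this comparison, so their non-overlap and these medians describe them and are no separate evidence.

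The rule for naming genes took the smallest adjusted p-values among called genes with a change of at least 2-fold, a mean of at least 20 counts and no overlap of libraries. It left 578 eligible genes that rose and 1343 that fell, and the first 2 of each are described. Solyc09g075740 headed the rises. Its level was 3.96 and 2.99 CPM in the stage 3 libraries, 30.7 and 27 CPM at stage 4, and 51.4 and 49 CPM at stage 5. Both stage 5 libraries thus stood above both stage 4 libraries, and those above both stage 3 libraries. The log2 change from stage 3 to stage 5 was 3.85 ± 0.302 (SE), a 14.4-fold rise (adjusted p = 0.00054, edgeR). In the control, stage 1 and stage 2 libraries the gene had 0 to 2 counts, at or under the floor of 3. The gain from stage 3 to stage 4 was 3.05 ± 0.297 (SE; adjusted p = 0.00336, edgeR), while that from stage 4 to stage 5, 0.80 ± 0.25, did not pass (adjusted p = 0.151, edgeR).

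Solyc03g091030 had 10.6 and 12.7 CPM at stage 3, 127 and 87.8 CPM at stage 4, and 91.2 and 120 CPM at stage 5. The stage 4 and stage 5 libraries overlapped, and all 4 stood above stage 3. Its rise from stage 3 to stage 5 was 3.17 ± 0.287 on the log2 scale (SE), or 8.97-fold (adjusted p = 0.00054, edgeR). Between stages 4 and 5 it differed by −0.03 ± 0.253 (SE; adjusted p = 0.968, edgeR), so no further rise was measured after stage 4. Its control, stage 1 and stage 2 levels were 0.354 to 2 CPM. A second tag held the same, partly non-whole, values in all 12 libraries. The level of either tag is therefore uncertain, and the second, which ranked equal, was not counted as another named gene.

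Solyc09g082280 headed the falls. It stood at 1701 and 1865 CPM at stage 3, 737 and 848 CPM at stage 4, and 389 and 285 CPM at stage 5. The groups followed each other without overlap. The log2 change from stage 3 to stage 5 was −2.40 ± 0.228 (SE), a level 5.28-fold lower (adjusted p = 0.000613, edgeR). The steps to stage 4 and from stage 4 were of like size, −1.17 ± 0.219 and −1.23 ± 0.221 (SE), and neither passed on its own (adjusted p = 0.0755 and 0.074, edgeR). Earlier levels were not in stage order, with means of 2718 ± 603 CPM (SD, n = 2) in the control, 1394 ± 80.4 at stage 1 and 2452 ± 374 at stage 2.

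Solyc01g106620 had 237 and 319 CPM at stage 3, 65.3 and 118 CPM at stage 4, and 38.7 and 35.1 CPM at stage 5. Again no libraries of different stages overlapped. Its log2 change was −2.91 ± 0.283 (SE), a level 7.5-fold lower (adjusted p = 0.000671, edgeR). Stages 1 and 2 held more of it than stage 3, with means of 640 ± 10.3 and 649 ± 75.6 CPM (SD, n = 2). The control mean was 338 ± 38.8 CPM, and the difference of stage 3 from the control did not pass (log2 −0.28 ± 0.254, adjusted p = 0.497, edgeR). Its deposited counts were not whole in at least 1 library, so part of them was assigned from reads that also matched other genes.

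**Figure D2:**
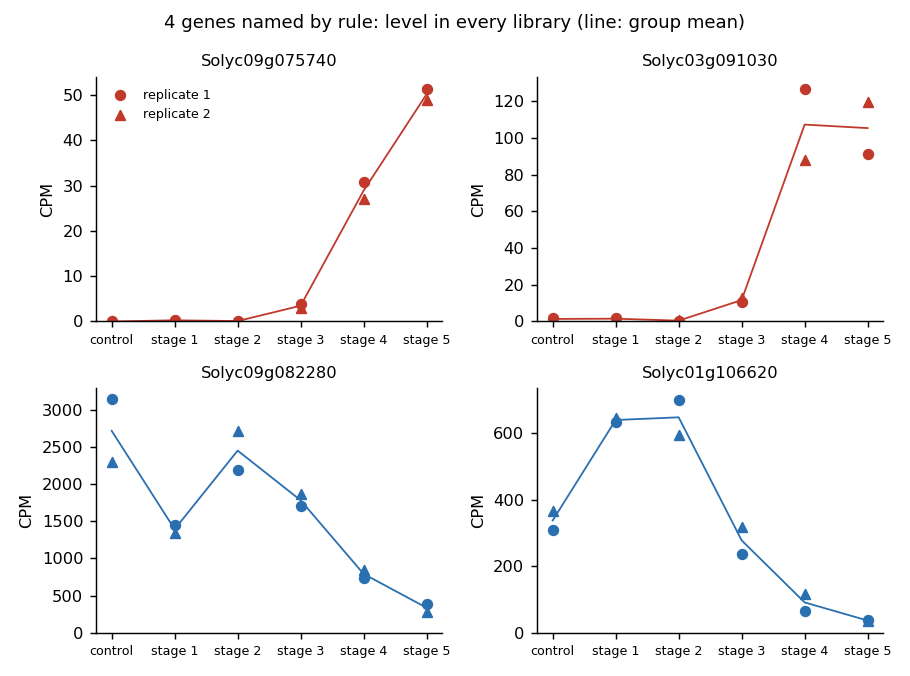
Level in CPM of the 4 genes named by rule in each of the 12 libraries (circles, replicate 1; triangles, replicate 2; lines, group means), by stage. Solyc09g075740 goes from 3.47 CPM at stage 3 to 50.2 at stage 5 and Solyc03g091030 is already at 107.4 at stage 4; Solyc09g082280 and Solyc01g106620 decline through stages 3, 4 and 5.

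The share of called genes varied with abundance. In the quartile of genes with the lowest mean count over the 4 libraries (up to 21.8), 5.88% were called, with a median absolute log2 change of 2.89. In the quartile with the highest mean count (152 and above), 29.3% were called, with a median of 0.98. The smallest absolute log2 change called was 1.33 in the lowest quartile and 0.53 in the highest. These shares and medians therefore also reflect how small a change could be called at each level. Falls outnumbered rises in the first 3 quartiles, with 2.29% of genes rising and 3.59% falling in the lowest, 4.25% and 9.09% in the second and 6.45% and 13% in the third. In the top quartile 14.9% rose and 14.4% fell. On the log2 scale, the median rise and fall were 2.80 and −2.97 in the lowest quartile and 1.61 and −1.76 in the second. They were 1.09 and −1.34 in the third quartile and 0.85 and −1.23 in the top one, where the gap was widest. The genes that fell had a median mean count of 103, and those that rose one of 165. How far this difference in abundance entered the larger median fall over all called genes was not tested.

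In total counts, the genes that rose held 14% and 12.7% of the stage 3 libraries and 25.6% and 23.3% of the stage 5 libraries. The genes that fell held 18.1% and 20.4% of the stage 3 libraries but 6.33% and 7.78% of the stage 5 libraries. The stage 4 libraries, which are not in the contrast but share its filter and its estimate of the spread, lay between these values, with 17.4% and 16.3% in the genes that rose and 10.7% and 14.1% in those that fell. In the control, stage 1 and stage 2 libraries, which entered the fit in the same way, the genes that rose held 7.56% to 10.1% of the counts, and the genes that fell held 26.6% to 30.7%. The genes that fell thus made up a larger share of the counts in each of these 6 libraries than in either stage 3 library.

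The level of the typical called gene followed the same course. Over the genes that rose, the median of the group means was 17.2 CPM in the control. It was 21.7, 20.9 and 29.8 CPM in the sections of stages 1 to 3, then 40 CPM (stage 4) and 61.6 CPM (stage 5). For genes that fell it was 39.2, 41.2, 42.7, 33, 22.9 and 12.3 CPM in the order from control to stage 5, so it was nearly level up to stage 2. Over all tested genes this median lay between 13.3 and 14.8 CPM. The scaling of the libraries assumes that most genes are unchanged, which tends to keep this median level. Of the genes that rose, 1247 (97.3%) had their highest group mean at stage 5, against 31.2% of all tested genes, and 740 (57.8%) had their lowest in the control, against 30.2%. Of the genes that fell, 1755 (95.5%) had their lowest mean at stage 5, against 32.3% of all tested genes. The stage 5 shares are largely set by the choice of genes called for their stage 5 level. The genes that fell had their highest mean at stage 1 for 38.9%, in the control for 31.7% and at stage 2 for 21.3%. Over all tested genes these shares were 21.5%, 20.9% and 9.54%. Stage 3 was highest for 7.07% and stage 4 for 0.98%, against 5.44% and 11.4% of all tested genes. Stage 5 was highest for 0%, against 31.2%, which the choice of genes sets and which raises the other shares. Set against the control, the genes that rose had a median log2 difference of 0.75 at stage 3 and 1.88 at stage 5, and the genes that fell one of −0.33 and −1.79. These differences share libraries with the comparison that chose the genes and are given side by side only.

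**Figure D3:**
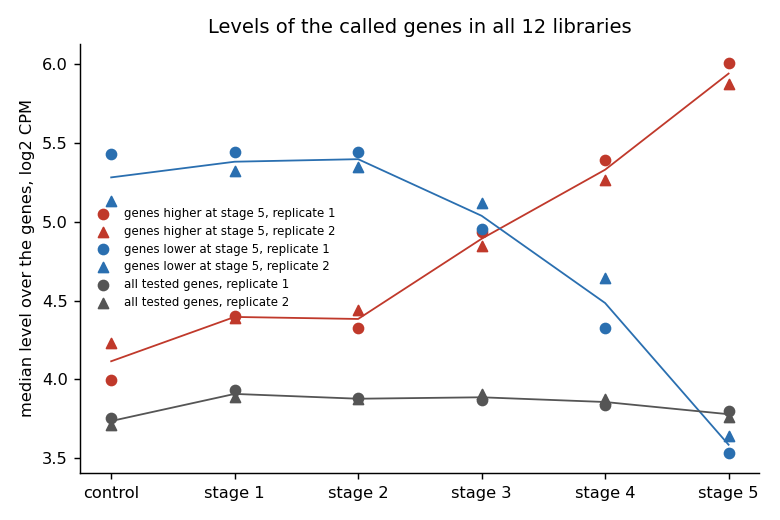
Median log2 CPM over the 1281 genes that rose (red), the 1838 that fell (blue) and all 18357 tested genes (grey) in each of the 12 libraries (circles, replicate 1; triangles, replicate 2; lines, means of the 2 libraries). The red medians reach 6.01 and 5.88 and the blue ones 3.53 and 3.64 at stage 5, while the grey ones stay between 3.71 and 3.93.

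Stage 4 shows how much of the change was present when the primordium lay midway through the cortex. The group mean of stage 4 lay between those of stages 3 and 5 for 1220 of the genes that rose (95.2%) and 1748 of those that fell (95.1%), against 58.2% of all tested genes. The called genes were chosen for a wide gap between stages 3 and 5, which favours a stage 4 mean inside it. The higher share is therefore no separate evidence. At stage 4 the median gene had completed 41.5% of its rise (quartiles 25.6% and 59.7%) or 39.2% of its fall (quartiles 24.8% and 52.7%) on the log2 scale. Over all tested genes the median share was also below the midpoint, at 38.5%, with quartiles of 1.37% and 76.2%. Many of these genes changed little between stages 3 and 5, which makes their shares unstable. The stage 4 duplicates differed in the median share of the called genes. Replicate 1 stood at 47.9% of the rise and 49.5% of the fall, and replicate 2 at 36.3% and 29.2%. All these shares use the stage 3 and stage 5 values by which the called genes were chosen, so they are descriptive only.

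Whether stage 4 deviated from the midpoint of stages 3 and 5 was tested for each gene with a contrast that is not the one used for the calls. It was past the threshold for 0 genes (0%) in edgeR's test, with 793 genes (4.32%) at an unadjusted p-value under 0.05, and for 7 genes in DESeq2. The smallest adjusted p-value, 0.0676 (edgeR), belonged to Solyc03g091030, whose stage 4 level was 1.61 ± 0.216 (SE) above the midpoint on the log2 scale. Without a filter on low counts 191 genes passed, of which 81.2% were above the midpoint. That fit gave the 4 named genes adjusted p-values of 1.8e-27 to 3.1e-22 for stage 5 against stage 3 (edgeR). They were 0.00054 to 0.000671 in the main fit (edgeR), so counts from the 2 fits are not on the same footing. Among the genes that rose, 37.9% had a stage 4 level above the midpoint, and among those that fell 72.6%, against 53.2% of all tested genes. Stage 4 had passed midway towards stage 5 for 38.3% of the genes that rose and 30.4% of those that fell, and for 40.8% of all tested genes. The midpoint is built from the stage 3 and stage 5 values by which the called genes were chosen. The shares for called genes are therefore no separate evidence on when the change took place. Taken singly, the steps gave few calls. Stage 4 against stage 3 gave 16 genes (0.0872%; 10 higher, 6 lower). Stage 5 against stage 4 gave 0 genes (0%) in edgeR's test, with 3230 at an unadjusted p-value under 0.05. DESeq2 called 168 and 553 genes for these steps, so the counts for single steps depended on the tool.

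**Figure D4:**
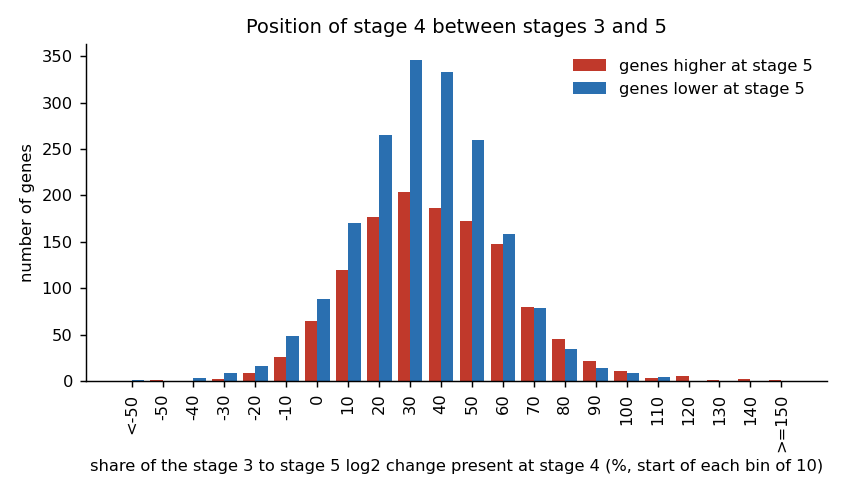
Share of the log2 change from stage 3 to stage 5 that was present at stage 4 (horizontal axis, bins of 10%), for the genes that rose (red) and fell (blue), as numbers of genes. Both distributions are highest between 20% and 60%, with medians of 41.5% and 39.2%, and few genes lie outside 0% to 100%.

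Genes that were close to absent in 1 of the stages were few. At stage 3, 192 tested genes had 3 counts or fewer in both libraries. Of these 192, 33 rose and 0 fell, against 1281 (6.98%) and 1838 (10%) of all 18357 tested genes. A gene at the floor has little room to fall further. For the 33, the stage 5 mean was at least 3.58-fold to at least 37.8-fold higher. The stage 3 value was set to the mean floor of both libraries, 0.593 CPM. The highest of these stage 5 means was 22.4 CPM. At stage 5, 755 tested genes had 3 counts or fewer in both libraries. Of these 755, 122 fell and 0 rose, against 1838 (10%) and 1281 (6.98%) of all 18357 tested genes. A gene at the floor at stage 5 has little room to be higher there than at stage 3. In both sets the share called in either direction was near the 17% of all tested genes. The bound for the 122 was weaker, with a range of 0.827-fold to 15.6-fold, a median of 3.46-fold and 86.1% above 2-fold. For 2 genes the bound did not exceed 1 and so shows no fall. The mean floor was 1.19 CPM, with the shallow second library at 1.6 CPM. Their highest stage 3 mean was 18.6 CPM. Whether these transcripts were lost or only under the floor was not detectable at this depth.

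The calls were spread over the genome. The first digits of a tag give the chromosome, and for tags 01 to 12 between 15.7% and 18.2% of the tested genes of a chromosome were called. Rises ran from 5.19% of genes on chromosome 12 to 8.04% on chromosome 6, and falls from 8.58% on chromosome 10 to 11.2% on chromosome 9. Tags beginning with Solyc00, given to sequence not placed on a chromosome, differed from this range. Of 175 such genes, 35 rose (20%) and 1 fell (0.571%), against 6.85% and 10.1% of the other genes. The median log2 change was 0.76 for the tags 00 and −0.02 for the others.

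Several measured features moved with this pattern, and their part in it was not tested. Values that were not whole, which arise where reads match several genes, were found for 88.6% of the tags 00 and 15.6% of the other genes. Among the 20 tags 00 with whole counts, 5 rose (25%) and 1 fell (5%), against 6.51% and 9.78% of the other genes with whole counts. Among the 2835 other genes with non-whole values, 8.71% rose and 11.9% fell. The stage 5 duplicates differed in the tags 00, with 2.48% of all counts in replicate 1 and 1.6% in replicate 2. The stage 3 libraries had 1.45% and 1.62%. The median log2 CPM of the 175 genes was 4.99 and 4.43 in the stage 5 libraries and 3.87 and 4.09 in the stage 3 libraries. It was 3.71 and 4.57 in the control, so the control duplicates were farther apart than the stage 5 duplicates. Leaving out any 1 of 3 libraries lowered the share of rises among the tags 00 and among all tested genes. Without stage 5 replicate 1, 6 of the tags 00 rose (3.26%, against 2.04% of all tested genes) and 3 fell (1.63%, against 3.08%). Without stage 3 replicate 1, 6 rose (3.11%, against 2.08%) and 0 fell. Without stage 3 replicate 2, 3 rose (1.59%, against 0.434%) and 0 fell. Without stage 5 replicate 2 the count did not drop, with 43 rises (22.5%, against 5.52%) and 0 falls. Thinning all libraries to the smallest left 23 rises (15.1%, against 5.99%) and 0 falls (against 8.72%). The fit with no filter, in which the adjusted p-values of the named genes were far smaller, gave 74 rises (26.7%, against 5.8%) and 10 falls (3.61%, against 10.4%).

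**Figure D5:**
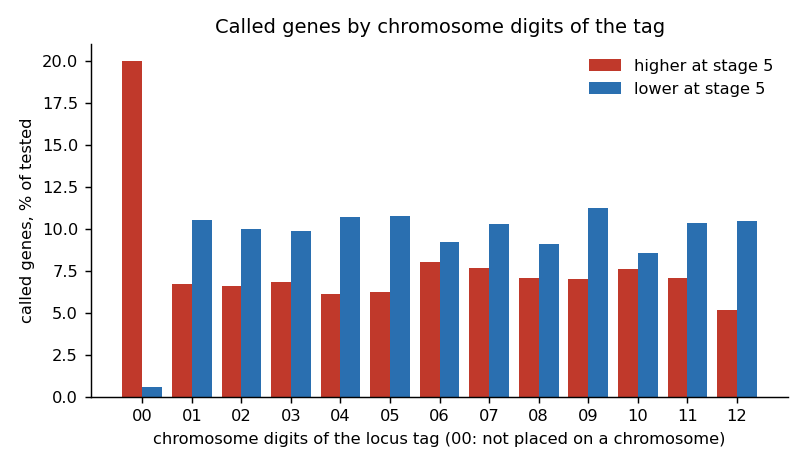
Percentage of tested genes that rose (red) or fell (blue) from stage 3 to stage 5, by the chromosome digits of the locus tag. Tags 00 stand at 20% and 0.571%, while tags 01 to 12 lie between 5.19% and 8.04% for rises and between 8.58% and 11.2% for falls.

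Tags are numbered along each chromosome, so neighbouring genes can be read from them. On tags 01 to 12, 16.6% of the genes that rose had a rising gene directly beside them among the tested genes, against 12.8% of the genes that did not rise. For falls the shares were 24.6% and 18.4%. These differences were not tested. With only genes of whole counts, the shares were 15% against 12.3% for rises and 24.3% against 17.8% for falls. Whole counts do not show that no reads matched several genes. Runs of at least 3 neighbours numbered 12 for rises, with 39 genes, and 36 for falls, with 114 genes.

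The longest run held 6 rising genes on chromosome 7, from Solyc07g043390 to Solyc07g043500. It was chosen after its values were seen, so these values describe it and test nothing. The table has 12 tags in this interval, and the other 6 did not pass the filter on low counts. The levels of the 6 genes were 27.3 to 519 CPM in the stage 3 libraries and 83.6 to 1954 CPM in the stage 5 libraries, and each rose 3.74-fold to 7.36-fold. For the first gene of the run, Solyc07g043390, the values were 100.8 and 197 CPM at stage 3, 484 and 311 CPM at stage 4 and 753 and 536 CPM at stage 5. For the last, Solyc07g043500, they were 28.5 and 36.4 CPM at stage 3, 156 and 98.6 CPM at stage 4 and 222 and 223 CPM at stage 5. Earlier levels of the first gene were not all below stage 3. Its means were 184, 103, 241 and 149 CPM from control to stage 3, with 126 and 356 CPM in the stage 2 libraries. For the last gene these means were 11.9, 7.31, 30 and 32.5 CPM. At stage 4 the 6 genes had completed 66.6% to 96.8% of their rise, against the median of 41.5% over all genes that rose. Non-whole counts were found for 1 of the 6 genes.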

How the data were processed

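Per the labels' protocols, a QuantSeq kit for 3′ ends was used. It reads transcript ends, so values were not divided by gene length. The deposited table held estimated counts for 34027 tags in 12 libraries. Salmon 1.3.0 and DESeq2 are named in the submitters' processing notes, without their roles. The annotation build and the use of strand are not given in the sources used here. Of all values, 5.43% were not whole (tolerance 0.001). The estimated counts, as deposited, were rounded to whole counts for the tests. No molecular identifiers are mentioned, so detection floors (3 counts) cover counting error only.

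Columns were matched to samples by name. Genes passing filterByExpr by stage (18357) were scaled by TMM and fitted with edgeR 4.0.16 (limma 3.58.1, R 4.3.3) in 1 model of 6 groups with 6 residual degrees of freedom. Contrasts were stage 5 minus stage 3, stage 4 minus the midpoint of both, and single steps. Standard errors are the log2 change divided by the square root of F. p-values were adjusted by Benjamini-Hochberg over all tested genes (threshold 0.05). CPM use TMM-scaled library sizes, and log2 CPM for medians and stage 4 shares have a prior count of 1. The fit was tested on simulated data, where it missed the smaller changes, so counts of 0 do not show that no gene changed. The labels do not say whether duplicates came from separate plants, so p-values measure only the spread between these samples, which may be technical. The comparison and the naming rule were chosen with earlier results of these data known. The reference table matched 0 tags, so the lists of pathway and marker genes were not used. Two-sided tests were used throughout. Alternatives were DESeq2 1.42.0, its size factors, other filters, fewer libraries, thinning, a replicate block and unrounded values.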

Additional observations from a re-analysis of the deposited data

How the results depend on the processing

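The counts of called, higher and lower genes stayed within 1.5 times those reported (3119, 1281 and 1838) with DESeq2, its size factors, no filter, 10 counts in every library, a replicate block, thinning and unrounded values. They also did with 2 alternatives added after seeing the data, genes with whole counts only (2637 called) and 1 gene per set of identical values. The fit without a filter gave far smaller adjusted p-values for the named genes, so its counts are not on the same footing as the others. Only the 4 libraries compared gave 1973, 784 and 1189. Leaving out 1 library of stage 3 or 5 gave 500 to 2769 called genes, 83 to 1060 higher and 417 to 1709 lower. Such fits leave 1 group with a lone library, which is assumed to vary like the other groups. The cause of these changes was not tested. The count of genes away from the midpoint, 0 in the full fit, was 7 with DESeq2, 191 without a filter and 1 after thinning, and 0 in each fit that left out a library. The 4 named genes kept direction and call in each setting that tested them. The replicate block gave 3201 called genes, 2986 of them shared. Same-numbered replicate differences correlated by 0.0351 between stages 3 and 5 and by −0.0831 to 0.212 over the 15 pairs of groups. The labels do not say what the replicate number marks. These correlations cannot decide whether same-numbered samples shared plants, a day or a preparation. Gene lists were not recomputed because no list could be applied. Depth limits statements on genes under 1.6 CPM in the shallower stage 5 library.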

Other observations

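Runs of neighbouring falling genes were also found, and they were picked after their values were seen. Runs of at least 4 tested neighbours that fell lay on chromosomes 2, 4, 6 and 9. On chromosome 9, 4 adjacent tags with whole counts had between 19.6 and 422 CPM in the stage 3 libraries. In the stage 5 libraries they had between 2.13 and 50.6 CPM, and each level was 7.58-fold to 11.7-fold lower. On chromosome 4, 5 tags went from between 35.1 and 1713 CPM to between 5.27 and 376 CPM. Non-whole counts were found for 4 of these 5.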
